A study of Mus musculus with 47 samples.

Results

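Class II and class IV histone deacetylases were followed as transcripts across 3 brain regions of mice of a Huntington's disease line. The 7 members were Hdac4, Hdac5, Hdac7 and Hdac9 of class IIa, Hdac6 and Hdac10 of class IIb, and Hdac11, the only member of class IV. They were found by the gene symbols annotated to the probes of the arrays, and the probe with the highest mean over all arrays stood for its gene. Of the 7 members, 6 had a probe, among 19596 genes and unnamed probes in all. No probe was annotated to Hdac6 in the table used here, and Hdac6 was not analysed here.

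Histone deacetylases remove acetyl groups from lysines of histones and of other proteins. Class IIa enzymes have little catalytic activity of their own, bind MEF2 transcription factors and move between nucleus and cytoplasm as calcium-dependent and other kinases phosphorylate them, which makes them carriers of neuronal activity signals. Class IIb enzymes act mainly in the cytoplasm, Hdac6 on tubulin and Hdac10 on acetylated polyamines, and Hdac11 removes long fatty acyl groups and is abundant in brain. These enzymes are of interest in Huntington's disease because mutant huntingtin goes with altered transcription in striatum and cortex, and because inhibitors of histone deacetylases, of which 4b is one, have been given to model mice.

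Striatum, cortex and cerebellum were taken from transgenic mice of the R6/2(300Q) line and from wild-type mice, all of a CBA x C57BL/6 background, and each array held total RNA of 1 sample. R6/2 mice express only a short amino-terminal fragment of mutant human huntingtin from a transgene, so they are a model of the fragment and not of the full-length protein. Treated mice of either genotype received the compound 4b at 1 mg/ml in the fluid they drank in place of water, for 67 days from the age of 4 months, and the other mice are labelled as controls without further detail. The 47 arrays fell into 12 groups of region, genotype and treatment, with 4 arrays in 11 groups and 3 in wild-type control cerebellum.

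The labels do not say whether 1 mouse gave more than 1 region or whether the arrays of a group came from separate mice, so each p-value sets a difference against the spread between arrays, which may be technical, and the number of arrays limits the precision. Median intensity per array ran from 122.2 to 289.3 before normalization, and arrays of 1 group correlated at 0.974 to 0.994. Markers set out the regions as labelled: the mean level of 8 medium spiny neuron genes had a median of 12.6 in striatum, 8.85 in cortex and 7.98 in cerebellum, 6 cortical excitatory neuron genes were highest in cortex with a median of 11.4, and 7 granule neuron genes were highest in cerebellum with a median of 10.6. That medium spiny neuron mean was 12.3 in transgenic control striatum and 12.9 in wild-type control striatum, groups that did not overlap. An array of wild-type control striatum, replicate 2, stood apart in choroid plexus genes, whose mean level was 11.9 there against a median of 8.80 over the striatum arrays, and an array of transgenic control cerebellum, replicate 1, stood apart in Hdac11 and was the highest array for Hdac4 and Hdac7. The choroid plexus genes also differed between groups of cerebellum, where their mean level was 11.1 in transgenic 4b mice (10.8 to 11.6) and 8.15 in transgenic control mice (7.62 to 8.66), and in transgenic control striatum they reached 10.8. In cerebellum they ran from 8.39 to 11.4 in wild-type control mice and from 7.74 to 11.6 in wild-type 4b mice. The mean of 4 red cell and blood genes ran from 9.01 to 13.0 in wild-type control cerebellum. In whole tissue, fewer cells of a type and less RNA per cell cannot be told apart.

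The promoters of 4 members are shown because Hdac4 and Hdac7 were lower in striatum than in cortex, while Hdac5 and Hdac11 did not pass the test in that comparison. They are RefSeq sequences of assembly GRCm38.p6, 250 bases before the start of the gene to 50 bases after it. Hdac4 is at chr1:92180292-92180591 on the minus strand, Hdac7, the first listed of its 4 starts, at chr15:97831446-97831745 on the minus strand, Hdac5 at chr11:102230123-102230422 on the minus strand, and Hdac11 at chr6:91156565-91156864 on the plus strand. Capitals mark GC boxes (GGGCGG or its reverse complement CCGCCC) and, in Hdac5, a match to the MEF2 consensus.
Hdac4: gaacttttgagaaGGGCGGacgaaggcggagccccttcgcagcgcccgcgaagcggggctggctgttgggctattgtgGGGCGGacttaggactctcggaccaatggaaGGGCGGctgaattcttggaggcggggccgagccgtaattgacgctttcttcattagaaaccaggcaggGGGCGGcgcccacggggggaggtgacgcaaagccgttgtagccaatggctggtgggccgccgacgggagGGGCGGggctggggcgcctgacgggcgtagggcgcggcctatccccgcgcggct
Hdac7: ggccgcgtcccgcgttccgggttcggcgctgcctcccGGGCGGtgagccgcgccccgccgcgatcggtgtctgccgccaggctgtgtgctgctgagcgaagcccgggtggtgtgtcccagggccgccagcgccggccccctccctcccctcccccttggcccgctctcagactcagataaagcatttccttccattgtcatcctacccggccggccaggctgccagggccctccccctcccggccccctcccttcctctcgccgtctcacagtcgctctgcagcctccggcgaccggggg
Hdac5: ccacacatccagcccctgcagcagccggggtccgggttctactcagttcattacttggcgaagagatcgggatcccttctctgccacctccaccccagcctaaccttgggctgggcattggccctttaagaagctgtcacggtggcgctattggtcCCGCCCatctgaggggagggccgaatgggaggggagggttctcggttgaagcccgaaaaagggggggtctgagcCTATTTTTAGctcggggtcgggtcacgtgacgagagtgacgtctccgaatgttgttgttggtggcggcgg
Hdac11: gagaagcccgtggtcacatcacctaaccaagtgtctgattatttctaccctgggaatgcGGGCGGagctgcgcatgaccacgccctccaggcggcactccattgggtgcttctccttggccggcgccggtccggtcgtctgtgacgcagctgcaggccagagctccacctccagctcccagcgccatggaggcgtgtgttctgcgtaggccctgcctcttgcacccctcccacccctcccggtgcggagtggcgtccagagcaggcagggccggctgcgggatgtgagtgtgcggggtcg

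The 4 windows were rich in CpG, with 32 CpG in Hdac4, 31 in Hdac7, 22 in Hdac11 and 18 in Hdac5, against a median of 7 over 32851 promoters of the same length. The GC box, the letters bound by SP factors, was found 5 times in Hdac4 and 1 time in each of the other 3, and 35.7% of all promoters held it. The cyclic AMP response core TGACG occurred 3 times in Hdac4, 2 times in Hdac5, 1 time in Hdac11 and not in this window of Hdac7, and 20.8% of all promoters held it. Hdac5 alone of the 4 held the MEF2 consensus, present in 3.19% of all promoters, and the E box CACGTG, present in 7.15%. None of the 4 held the full CRE TGACGTCA, which contains the core and was in 1.79% of promoters, or the TATA box TATAAA, which was in 13.6%. The table held 10 starts for 6 of the 7 members, with Hdac10 not among them. Not all were rich in CpG: the other listed starts of Hdac7 held 6, 35 and 5 CpG and no GC box. Those of Hdac9 held 0 and 3 CpG, and that of Hdac6 held 20. Both strands were searched, and a match in these letters is a description and not a bound site.

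Levels are given as log2 intensities after background correction and quantile normalization, and since every gene was read by its own probe, a level is compared only with other arrays and not with other genes. Of the 6 measured members, 5 lay above the filter on dim probes (the 40th percentile of a region's probe means) in all 3 regions, and Hdac9 passed it only in cortex. As a floor, 3 Y-linked probes on 26 arrays of female mice had a mean of 6.30 with an SD of 0.20 and a highest value of 6.75. Every array of Hdac4, Hdac5, Hdac7, Hdac10 and Hdac11 lay above that highest value. The median of Hdac9 was 6.65 in striatum, 6.83 in cortex and 6.64 in cerebellum, which put most of its arrays within the range of that floor outside cortex.

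**Figure D1:**
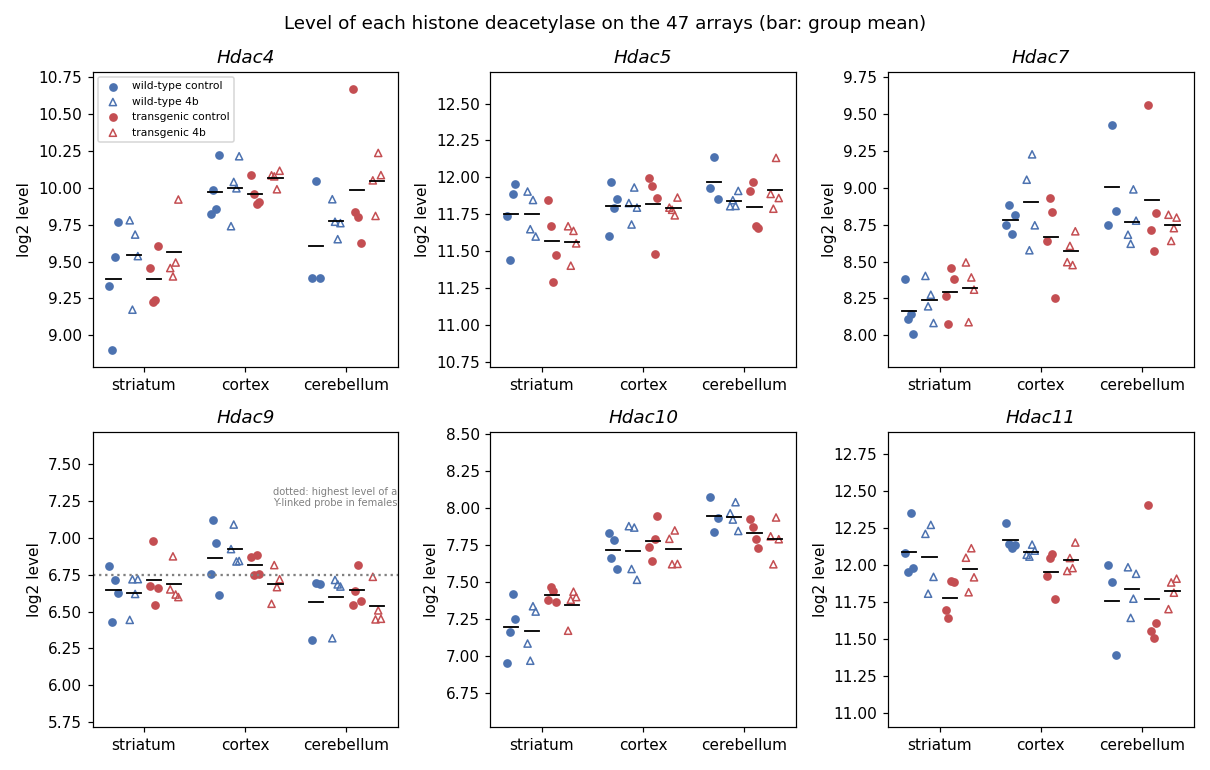
Each panel plots the log2 level of 1 histone deacetylase (vertical axis, 2 log2 units in every panel) on the 47 arrays, by region, with filled circles for control and open triangles for 4b, blue for wild-type and red for transgenic, and a bar at the group mean. Hdac4, Hdac7 and Hdac10 sit lower in striatum than in cortex, and 1 array of transgenic control cerebellum is the highest for Hdac4 (10.67), Hdac7 (9.56) and Hdac11 (12.41).

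Regional levels without transgene or drug were compared in wild-type control mice. Striatum had less Hdac4, Hdac7 and Hdac10 than cortex, by 1.44 to 1.54 times, while Hdac5 and Hdac11 did not pass the test. Of the 5 members tested, 3 were thus called, all lower in striatum, where 29.8% of the 11658 genes tested were called and 15.4% were called lower. The median difference over the 5 members was -0.52 on the log2 scale, and that over all genes tested was 0.01. A gene was called at an adjusted p under 0.05, from limma with Benjamini-Hochberg adjustment over all genes tested. Where arrays of 2 groups are said not to overlap, the share of all genes that did so was not counted.

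Hdac4, a class IIa repressor that restrains MEF2 target genes and is mostly cytoplasmic in forebrain neurons, was at 9.33, 8.90, 9.53 and 9.77 in wild-type control striatum. In wild-type control cortex it was at 9.82, 9.98, 9.86 and 10.22. All 4 cortical arrays lay above all 4 striatal arrays. The difference of striatum from cortex was -0.59 (95% interval -0.93 to -0.24, SE 0.17, limma adjusted p = 0.0070), or 1.5-fold lower. It was -0.43 with an adjusted p of 0.0640 without striatum replicate 2, the array with the high choroid plexus genes, so the call rested on that array. Cerebellum, at 9.39, 10.05 and 9.39, spanned the range of striatum, and neither the difference of striatum (-0.22, adjusted p = 0.352) nor that of cortex (0.36, adjusted p = 0.116) from cerebellum passed. Without cerebellum replicate 2 the latter was 0.58 and passed (adjusted p = 0.0180), and over the settings tried the former ran from -0.35 to -0.0050.

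Hdac7, a class IIa member first studied in thymocytes and in the endothelium, was at 8.38, 8.11, 8.14 and 8.01 in wild-type control striatum. It was at 8.75, 8.89, 8.69 and 8.81 in cortex and at 8.75, 9.42 and 8.84 in cerebellum. Every striatal array lay below every cortical and cerebellar array. Striatum differed from cortex by -0.62 (95% interval -0.94 to -0.30, SE 0.16, adjusted p = 0.00183, 1.54-fold lower) and from cerebellum by -0.84 (-1.19 to -0.50, SE 0.17, adjusted p = 6.9e-05, 1.80-fold lower). Cortex and cerebellum differed by -0.22 (adjusted p = 0.314). Over the same groups the mean of 8 endothelial genes was 9.45 in striatum, 9.57 in cortex and 9.55 in cerebellum, with 1 of the 8 at or below the highest Y-linked value in each region, and their part in the regional difference was not tested.

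Hdac10, the class IIb polyamine deacetylase, was at 6.95, 7.16, 7.42 and 7.25 in wild-type control striatum. It was at 7.83, 7.66, 7.78 and 7.59 in cortex and at 8.08, 7.84 and 7.93 in cerebellum. The striatal arrays were the lowest and the cerebellar arrays the highest, with no overlap between any 2 of the 3 regions. Striatum was 1.44-fold below cortex (-0.52, 95% interval -0.72 to -0.33, SE 0.096, adjusted p = 3.4e-05) and 1.69-fold below cerebellum (-0.75, -0.96 to -0.54, SE 0.10, adjusted p = 9.1e-08). Cortex was at -0.23 from cerebellum, which did not pass (-0.44 to -0.02, adjusted p = 0.0710).

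Against cerebellum, 2 of the 5 members, Hdac7 and Hdac10, were called lower in striatum, where 43.3% of 11501 genes were called and 22.4% were called lower. Between cortex and cerebellum, 1 of the 5, Hdac11, was called, and there 41.6% of 11505 genes were called and 20.4% were called higher in cortex. Hdac11, the class IV enzyme, was at 12.28, 12.14, 12.11 and 12.14 in wild-type control cortex and at 12.001, 11.89 and 11.39 in cerebellum. The groups did not overlap, and cortex exceeded cerebellum by 0.41 (0.11 to 0.70, SE 0.15, adjusted p = 0.0216, 1.33-fold). That call was lost without cerebellum replicate 4, the lowest array (0.23, adjusted p = 0.282), and without cortex replicate 1 (0.37, adjusted p = 0.0587). In striatum Hdac11 was at 12.08, 11.96, 12.35 and 11.98, or 0.33 above cerebellum (0.04 to 0.63, adjusted p = 0.0635), and this difference passed at 0.0173 without transgenic control cerebellum replicate 1, whose spread enters the fit, at 0.0225 without wild-type control cerebellum replicate 1 and at 0.0493 without wild-type control striatum replicate 2.

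Hdac5, a class IIa member linked to responses of the striatum to reward and stress, did not differ by the test between any 2 regions of wild-type control mice. It was at 11.74, 11.44, 11.89 and 11.95 in striatum, at 11.60, 11.97, 11.80 and 11.86 in cortex and at 11.93, 12.14 and 11.85 in cerebellum. The 3 regions overlapped. The difference of striatum from cortex was -0.05 (-0.28 to 0.18, adjusted p = 0.795) and from cerebellum -0.22 (-0.46 to 0.03, adjusted p = 0.157), and cortex was at -0.17 from cerebellum (-0.41 to 0.08, adjusted p = 0.298). Hdac9, the class IIa member known for its response to innervation in muscle, was not tested across regions, since it passed the filter only in cortex, where wild-type control arrays were at 6.75, 7.12, 6.96 and 6.61.

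All arrays of a region were not spread evenly over the 6 BeadChips named in the labels. Striatum and cortex of wild-type control mice met on 1 BeadChip, and cerebellum shared none with either. Within that BeadChip, with 2 arrays of striatum and 1 of cortex, striatum differed by -1.11 for Hdac4, -0.57 for Hdac7, -0.53 for Hdac10, -0.27 for Hdac5 and -0.12 for Hdac11. The striatal arrays there were replicates 1 and 2, the latter the array with the high choroid plexus genes on which the Hdac4 call rested. The cortical array, replicate 4, was the highest of its group for Hdac4 at 10.22. For the comparisons with cerebellum, BeadChip and region cannot be told apart in these groups.

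The other 3 groups of mice, compared after the wild-type control values had been seen, gave the same direction for the striatum against cortex in all 5 members, each read by its brightest probe. In wild-type 4b mice Hdac4 (-0.45, adjusted p = 0.0390), Hdac7 (-0.66, adjusted p = 0.00089) and Hdac10 (-0.54, adjusted p = 1.8e-05) were called lower in striatum than in cortex, where 31.3% of genes were called and 15.5% lower. The Hdac4 groups overlapped, since striatum was at 9.78, 9.17, 9.68 and 9.54 and cortex at 9.74, 10.04, 9.996 and 10.21, and the call was lost without striatum replicate 2 (-0.33, adjusted p = 0.185) or replicate 4, or without cortex replicate 2, 3 or 4. In transgenic control mice Hdac4 (-0.58, adjusted p = 0.00948) and Hdac10 (-0.37, adjusted p = 0.00339) were called, with 25.1% of genes called and 12.6% lower. In transgenic 4b mice the same 2 were called (Hdac4 -0.50, adjusted p = 0.0277, and Hdac10 -0.38, adjusted p = 0.00269), with 24.8% of genes called and 12.1% lower, and the Hdac4 call was lost without any one of striatum replicates 1, 2 and 3 or cortex replicates 1, 2 and 4 (highest adjusted p = 0.0852).

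Hdac7 was not called between striatum and cortex in the transgenic groups. It was at 8.26, 8.08, 8.45 and 8.38 in transgenic control striatum and at 8.64, 8.93, 8.84 and 8.25 in cortex, where replicate 4 reached into the striatal range. The difference was -0.37 (-0.69 to -0.05, adjusted p = 0.0818), and -0.51 (adjusted p = 0.0179) without that cortical array. In transgenic 4b mice it was -0.25 (-0.57 to 0.07, adjusted p = 0.280). A smaller regional difference in transgenic control mice was not shown: the genotype difference of Hdac7 in control mice was 0.25 higher in striatum than in cortex, with an adjusted p of 1.00. Whether the regional difference under 4b differed between genotypes was not tested.

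Against cerebellum, Hdac7 and Hdac10 were lower in striatum in every one of the 3 further groups. In wild-type 4b mice the differences were -0.53 for Hdac7 (adjusted p = 0.00506) and -0.77 for Hdac10 (adjusted p = 7.9e-09), with 47% of genes called and 25.5% lower. In transgenic control mice Hdac4 joined them at -0.60 (adjusted p = 0.00367), beside -0.62 for Hdac7 (adjusted p = 0.00109) and -0.42 for Hdac10 (adjusted p = 0.00041), with 44.8% of genes called and 23.9% lower. The Hdac4 value rested on transgenic control cerebellum replicate 1 and was -0.37 without it (adjusted p = 0.0542). In transgenic 4b mice, whose cerebellum had the high choroid plexus genes, 4 members were called, Hdac4 (-0.48, adjusted p = 0.0218), Hdac5 (-0.35, adjusted p = 0.0107), Hdac7 (-0.42, adjusted p = 0.0262) and Hdac10 (-0.44, adjusted p = 0.0002), with 42.6% of genes called and 22.7% lower. Of these the Hdac4 and Hdac5 calls were lost without cerebellum replicate 3 (adjusted p = 0.0740 and 0.0619), that of Hdac4 also without striatum replicate 1 or 2, and that of Hdac7 without striatum replicate 2 (adjusted p = 0.101) or cerebellum replicate 1 or 4. The part of the choroid plexus genes in these differences was not tested.

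Between cortex and cerebellum, Hdac10 was called lower in cortex in wild-type 4b mice (-0.23, adjusted p = 0.0476), where 44.9% of genes were called and 24.6% lower. That call held under 25 of 46 other settings. In transgenic control and in transgenic 4b mice limma called 0 members, with 41.7% and 42.4% of genes called, and 0 of the 5 had an unadjusted p under 0.05 in either. Without transgenic control cerebellum replicate 1, Hdac11 was 0.40 higher in transgenic control cortex than in cerebellum (adjusted p = 0.00435).

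Few arrays of different regions met on 1 BeadChip in these 3 groups, with 1 or 2 arrays a side. Within shared BeadChips striatum differed from cortex for Hdac4 by -0.93 and 0.04 in wild-type 4b mice, by -0.57 and -0.48 in transgenic control mice and by -0.54 and -0.19 in transgenic 4b mice. For Hdac7 in transgenic control mice it differed by -0.52 and 0.16. For Hdac10 it was lower than cortex or cerebellum on every BeadChip that both regions shared. Against cerebellum, on the only shared BeadChip of each group, Hdac4 was at 0.11 in transgenic 4b mice, the opposite sign to its called difference of -0.48, at 0.0098 in wild-type 4b mice and at -0.58 in transgenic control mice.

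**Figure D2:**
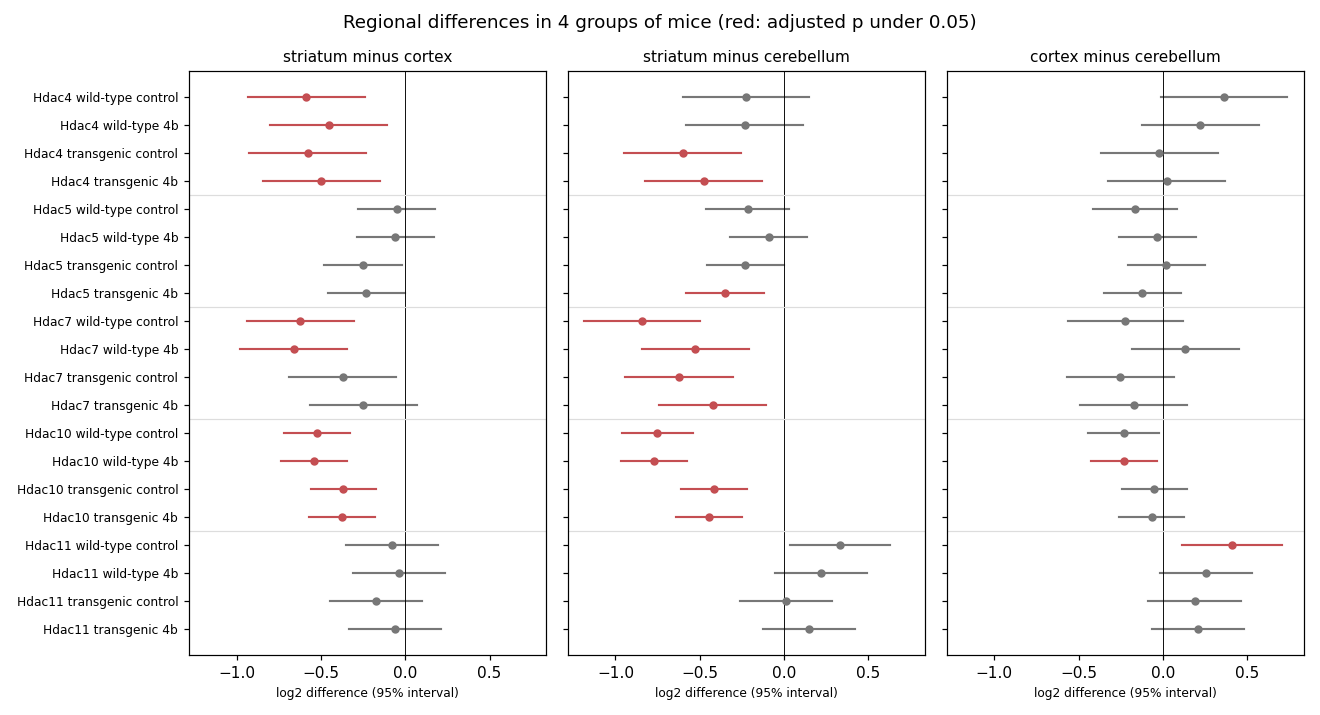
Each point is the log2 difference between 2 regions within 1 group of mice and each line its 95% interval, for the 5 members tested in all regions, with red for an adjusted p under 0.05. The striatum minus cerebellum differences of Hdac7 and Hdac10 are red in all 4 groups (from -0.42 to -0.84), and the striatum minus cortex differences of Hdac4 and Hdac10 are red in all 4 groups.

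The 12 group means, put in order, come from the same arrays as the tests above and are given as a description. For Hdac10 the 4 cerebellar groups came highest, from 7.95 in wild-type control to 7.79 in transgenic 4b, then the 4 cortical groups from 7.78 to 7.71, then striatum from 7.41 in transgenic control to 7.17 in wild-type 4b. For Hdac7 the 4 striatal groups, from 8.32 to 8.16, lay below all other groups, from 9.01 in wild-type control cerebellum to 8.57 in transgenic 4b cortex. For Hdac4 the 4 striatal groups were again the lowest, from 9.57 to 9.38, with transgenic 4b cortex the highest at 10.07. Hdac5 ran from 11.97 in wild-type control cerebellum to 11.57 in transgenic 4b striatum, and its 4 lowest groups were striatal. Hdac11 ran from 12.17 in wild-type control cortex to 11.76 in wild-type control cerebellum, and Hdac9 from 6.92 in wild-type 4b cortex to 6.54 in transgenic 4b cerebellum. Of the 66 pairs of neighbours in these orders, 62 were no further apart than their pooled SD, and 1 pair had ranges that did not overlap, Hdac10 in wild-type 4b cortex (7.52 to 7.88) over transgenic control striatum (7.36 to 7.47). These counts were not made over all genes.

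Genotype was compared within each region. No member was called: over 6 comparisons under control treatment or 4b, limma called 0 of 32 member tests, of which 4 had an unadjusted p under 0.05. Averaged over both treatments it called 0 of 16, of which 5 had an unadjusted p under 0.05. Many other genes also fell under that unadjusted level. They numbered 1495 to 2564 per single-group comparison and 2278 to 3297 per averaged comparison, with 12030 to 12052 genes tested each time. Whether the members exceeded this background was not tested. Under control treatment 3.78% of genes were called in striatum, 5.09% in cortex and 0.689% in cerebellum. Under 4b these shares were 4.51%, 5.52% and 1.44%, and averaged they were 13.7%, 13.6% and 5.25%. The single-group differences of the members ran from -0.33 to 0.37, and their 95% intervals did not exclude changes of up to 1.78-fold.

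Hdac11 came nearest under control treatment. In striatum the transgenic control arrays were at 11.70, 11.64, 11.90 and 11.89 and the wild-type arrays at 12.08, 11.96, 12.35 and 11.98. In cortex the transgenic arrays were at 11.93, 12.05, 12.07 and 11.77 and the wild-type arrays at 12.28, 12.14, 12.11 and 12.14. In both regions every transgenic control array lay below every wild-type control array. Of the 32 single-group genotype tests of members, 3 had groups that did not overlap, and this was not counted over all genes. The differences were -0.31 in striatum (-0.56 to -0.06, SE 0.12, unadjusted p = 0.0185, adjusted p = 0.171) and -0.22 in cortex (-0.38 to -0.05, SE 0.08, unadjusted p = 0.0120, adjusted p = 0.129), which do not pass the threshold. In the same cortical groups the mean of 6 cortical excitatory neuron genes was 11.3 in transgenic (11.1 to 11.4) and 11.7 in wild-type mice (11.6 to 11.7), and that of 7 astrocyte genes was 11.2 (11.1 to 11.3) and 11.6 (11.6 to 11.7), with no overlap. In striatum the medium spiny neuron mean was 12.3 against 12.9, and the part of these lists in the Hdac11 values was not tested. Under 4b the groups overlapped, with transgenic striatum at 12.05, 11.82, 12.11 and 11.92 against 12.21, 11.81, 12.27 and 11.92, and the differences were -0.08 in striatum (adjusted p = 0.807) and -0.06 in cortex (adjusted p = 0.712). In cerebellum the control difference was 0.01 (-0.41 to 0.43, adjusted p = 0.996), and -0.21 (adjusted p = 0.545) without transgenic control replicate 1, whose 12.41 stood above 11.55, 11.50 and 11.61 in the other 3.

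Hdac10 leaned the other way in striatum. Transgenic control arrays were at 7.38, 7.47, 7.44 and 7.36 and wild-type control arrays at 6.95, 7.16, 7.42 and 7.25, and the transgenic arrays all lay above 3 of the 4 wild-type arrays. The difference was 0.22 (-0.01 to 0.44, adjusted p = 0.301) under control treatment and 0.17 (adjusted p = 0.436) under 4b. Averaged over both treatments it was 0.20 (0.04 to 0.35, unadjusted p = 0.0187, adjusted p = 0.0985), which does not pass, and 0.23 (adjusted p = 0.0469) without wild-type control replicate 3. In cortex it was 0.06 (adjusted p = 0.811) and in cerebellum -0.12 (adjusted p = 0.693) under control treatment. The genotype difference of Hdac10 under control treatment was 0.34 higher in striatum than in cerebellum (limma, unadjusted p = 0.0227, adjusted p = 0.347). In such tests of 2 regions against each other, made under control treatment only, limma called 0 members. There 0.214%, 0.904% and 0.374% of genes were called for striatum against cortex, striatum against cerebellum and cortex against cerebellum.

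The class IIa members Hdac4 and Hdac7 gave wide intervals in cerebellum. Hdac4 was at 10.67, 9.84, 9.80 and 9.62 in transgenic control cerebellum, against 9.39, 10.05 and 9.39 in wild-type. The difference was 0.37 (-0.09 to 0.84, adjusted p = 0.518), and 0.15 (adjusted p = 0.736) without transgenic replicate 1. Under 4b, in other arrays, the Hdac4 difference was 0.27 and was not called. Averaged over both treatments it was 0.32 (limma, unadjusted p under 0.05, adjusted p = 0.251). Over 31 other settings the averaged value ran from 0.21 to 0.43 and was never called. Under control treatment Hdac4 showed -0.0020 in striatum (-0.37 to 0.36, adjusted p = 0.996) and -0.01 in cortex (-0.22 to 0.20, adjusted p = 0.974). Hdac7 was at 9.56, 8.71, 8.57 and 8.83 in transgenic control cerebellum, with a difference of -0.09 from wild-type (adjusted p = 0.918), and -0.30 (adjusted p = 0.390) without replicate 1. In cortex under 4b Hdac7 was at 8.50, 8.61, 8.48 and 8.70 in transgenic mice and at 9.05, 8.58, 9.23 and 8.75 in wild-type mice, a difference of -0.33 (-0.63 to -0.03, adjusted p = 0.195) with overlapping groups.

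Hdac9 in cortex differed by -0.05 under control treatment (-0.26 to 0.17, adjusted p = 0.865). Under 4b the transgenic arrays, at 6.55, 6.81, 6.67 and 6.72, all lay below the wild-type arrays, at 6.92, 7.09, 6.84 and 6.84, and the difference was -0.24 (-0.45 to -0.02, unadjusted p = 0.0319, adjusted p = 0.186). Of the 4 transgenic arrays 3 lay at or under the highest Y-linked value of 6.75. The other 2 Hdac9 probes had means of 6.40 and 6.12 and lay within the range of the Y-linked probes on average.

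Genotypes of control mice shared no BeadChip in striatum or cortex, so BeadChip and genotype cannot be told apart there. In cerebellum they met on 1 BeadChip, with 1 array each, where the transgenic array was at -0.24 for Hdac4, -0.46 for Hdac5, -0.85 for Hdac7, -0.05 for Hdac10 and -0.38 for Hdac11. Under 4b they met in cerebellum on 1 BeadChip with 2 arrays each. There the transgenic arrays were at 0.45 for Hdac4, 0.14 for Hdac5, -0.12 for Hdac7, -0.08 for Hdac10 and 0.0037 for Hdac11. On shared BeadChips under 4b, Hdac4 was at 0.31 in striatum and at 0.34 and -0.0061 in cortex. Hdac9 was at -0.37 and -0.35 in cortex. With BeadChip as a fixed or random block, limma called 0 members in every genotype and 4b comparison.

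Hdac5 was read by a second probe, the dimmer one, which passed the test for genotype in striatum where the brighter one did not. The difference between the probes was not tested. On the brighter probe transgenic control striatum was at 11.85, 11.67, 11.29 and 11.47 and transgenic 4b striatum at 11.67, 11.40, 11.64 and 11.55. Wild-type 4b striatum was at 11.90, 11.65, 11.85 and 11.60, and the genotypes overlapped under both treatments. The averaged difference on that probe was -0.18 (-0.38 to 0.01, adjusted p = 0.205), and -0.24 (adjusted p = 0.0747) without wild-type control replicate 2.

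On the dimmer probe the transgenic control arrays of striatum ran from 9.30 to 9.55 and the transgenic 4b arrays from 9.27 to 9.60. The wild-type 4b arrays ran from 9.67 to 9.88, and of the wild-type control arrays 3 ran from 9.76 to 9.82 while 1, at 9.30, lay with the transgenic arrays. Under 4b all transgenic arrays lay below all wild-type arrays. Averaged over both treatments the transgenic mice were lower by this probe, at -0.28 (SE 0.08, adjusted p = 0.0262), where 7.22% of genes were called lower, and the single-group differences were -0.24 under control treatment (adjusted p = 0.279) and -0.32 under 4b (adjusted p = 0.127). The averaged call held under 23 of 30 other settings, with differences from -0.34 to -0.20, and was lost with median scaling (-0.20, adjusted p = 0.232) and without 6 of the 16 arrays left out 1 at a time. In cortex the averaged difference of this probe was 0.01 (adjusted p = 0.964) and in cerebellum -0.02 (adjusted p = 0.934). Between regions, this probe was lower in striatum than in cerebellum in transgenic control mice (-0.30, adjusted p = 0.0210) and transgenic 4b mice (-0.29, adjusted p = 0.0234). On the brighter probe the former difference was -0.23 (adjusted p = 0.0988), and it passed without striatum replicate 1 (-0.32, adjusted p = 0.0254), as it did for the mean of both probes (-0.26, adjusted p = 0.0304). The brighter probe's difference of striatum from cortex in transgenic control mice, -0.25 (adjusted p = 0.109), passed without striatum replicate 1 (-0.34, adjusted p = 0.0307) or cortex replicate 3 (-0.36, adjusted p = 0.0176). For striatum minus cortex the dimmer probe was at 0.0067 in wild-type control and 0.05 in wild-type 4b mice, the opposite sign to the brighter probe. It was at -0.27 in transgenic control and -0.26 in transgenic 4b mice (limma adjusted p = 0.0627 and 0.0724). The probes correlated at 0.71 over the 47 arrays after the region mean was taken off. Over the same striatum arrays the medium spiny neuron list was lower in transgenic mice (12.3 against 12.9 under control treatment and 12.2 against 12.9 under 4b), and its part in the Hdac5 values was not tested.

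**Figure D3:**
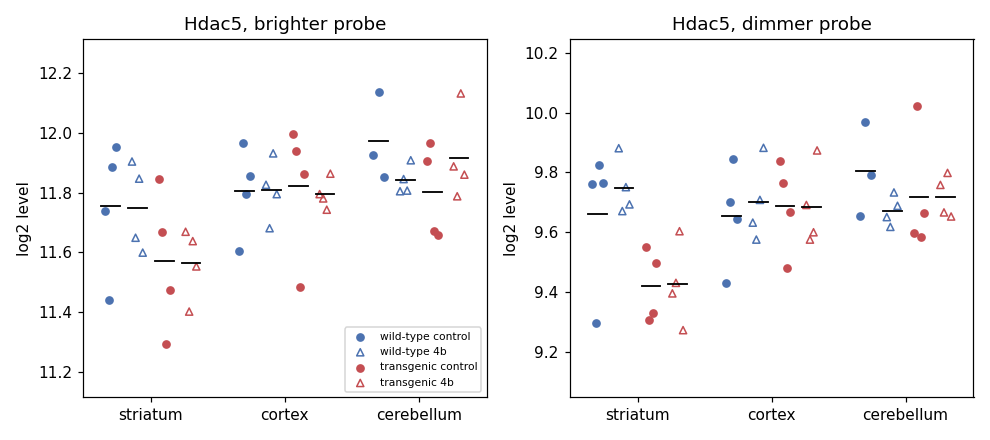
The log2 levels of the brighter (left) and dimmer (right) Hdac5 probe on the 47 arrays are plotted by region, with symbols as in the plot of levels and a bar at each group mean. In striatum the transgenic groups lie lower on both probes, and the dimmer probe separates them from wild-type (means of 9.42 and 9.43 against 9.66 and 9.75) except for 1 wild-type control array at 9.30.

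Treatment with 4b was compared within region and genotype. No member was called: limma called 0 of 32 member tests, 0 of which had an unadjusted p under 0.05, and 0 of 16 averaged over both genotypes, also with 0 under 0.05. The background was as bare, with 0% of genes called in each of the 6 single-group comparisons and in averaged cortex and cerebellum, and 0.00831% in averaged striatum. Between 257 and 1098 genes per single-group comparison had an unadjusted p under 0.05. The 95% intervals of the members did not exclude changes of up to 1.60-fold in the single groups and 1.42-fold averaged.

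The largest differences under 4b were in both directions. Hdac11 in transgenic striatum was 0.19 higher under 4b (-0.06 to 0.45, adjusted p = 1.00), where 1 of the 4 treated arrays, 11.82, lay below the highest pair of control arrays, 11.89 and 11.90. Hdac4 in striatum was 0.19 higher in transgenic mice (-0.18 to 0.55) and 0.16 higher in wild-type mice (-0.21 to 0.53). Hdac7 in wild-type cerebellum was at -0.24 (-0.67 to 0.20, adjusted p = 0.713), with treated arrays at 8.68, 8.62, 8.99 and 8.78. Hdac5 in striatum was at -0.0056 in transgenic mice and -0.0049 in wild-type mice (both intervals -0.28 to 0.27). In transgenic cerebellum, where the choroid plexus genes were at 11.1 under 4b and 8.15 under control treatment, their part in the 4b values of the members was not tested. The genotype difference under 4b against that under control treatment was also tested, and limma called 0 members in any region, with 0% of genes called and 0 members at an unadjusted p under 0.05.

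**Figure D4:**
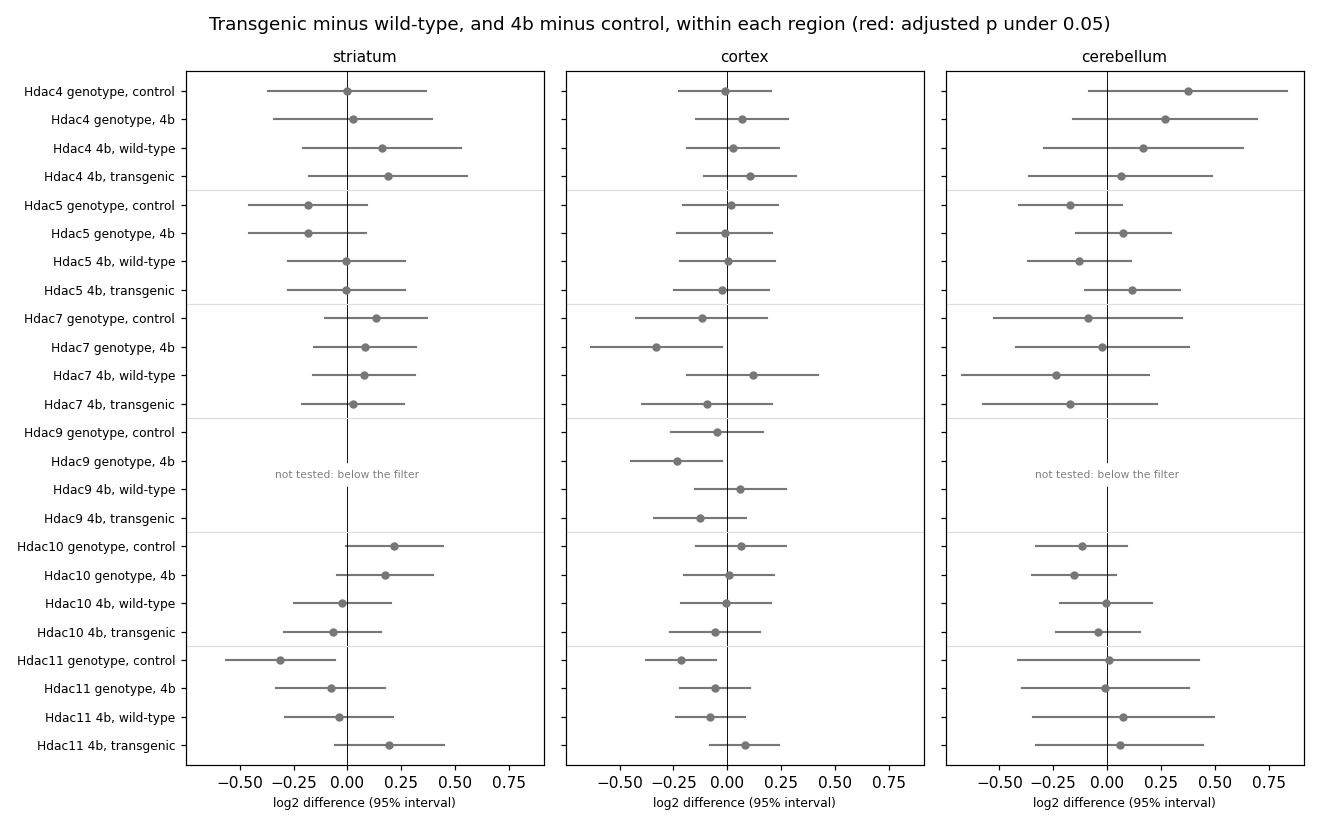
Each point is a log2 difference within 1 region, of transgenic from wild-type under control treatment or 4b (genotype) or of 4b from control in either genotype (4b), with its 95% interval, and red would mark an adjusted p under 0.05. No point is red, and the widest intervals are those of Hdac4 and Hdac7 in cerebellum.

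Other genes of acetylation and of class IIa signalling were read from 7 lists. For genotype under control treatment, 3.78% of all genes tested were called in striatum, 5.09% in cortex and 0.689% in cerebellum. Of the 4 class I histone deacetylases, 1 rose in transgenic control mice in striatum and 1 in cortex, in both cases Hdac1, a nuclear enzyme of the main corepressor complexes. Hdac1 was 9.55 ± 0.05 in transgenic and 8.98 ± 0.03 in wild-type control striatum (SD, n = 4 each), a difference of 0.57 (limma adjusted p = 0.00382), and 0.44 higher in cortex (adjusted p = 0.0339). The median difference of the 4 was 0.18 in striatum, against 0.01 over all genes tested. Of 6 sirtuins, NAD-dependent deacetylases, limma called 0 under control treatment in each region, with 1 at an unadjusted p under 0.05 in each.

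The kinases, phosphatase and adaptor proteins that set the location of class IIa enzymes included 25 tested genes. Under control treatment 1 of the 25 was lower in transgenic striatum and 1 in transgenic cortex, and none was higher. Over all genes 3.78% were called in striatum and 5.09% in cortex, so these counts were near the background. The former was Camk4, a nuclear calcium-dependent kinase, at 8.46 ± 0.26 against 9.33 ± 0.38 (difference -0.86, adjusted p = 0.0333). The latter was Camk2a, the main calcium-dependent kinase of excitatory synapses, at 13.17 ± 0.16 against 13.73 ± 0.10 (difference -0.57, adjusted p = 0.00383). Beside these, the medium spiny neuron mean in striatum was 12.3 against 12.9 and the cortical excitatory neuron mean in cortex 11.3 against 11.7, and their part was not tested. The medians of the list were -0.09 in striatum and -0.02 in cortex, against 0.01 over all genes in each. Averaged over both treatments, 7 of the 25 were lower in transgenic striatum and 0 were higher, with a median of -0.11 against 0.02 over all genes. In that comparison 13.7% of genes were called and 7.22% were called lower. The medium spiny neuron mean was lower in transgenic striatum under either treatment (12.3 against 12.9 and 12.2 against 12.9), and its part in this count was not tested.

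MEF2 factors and other partners of class IIa enzymes gave 0 calls of 9 (limma) in each region under control treatment, 1, 1 and 0 of them having an unadjusted p under 0.05, and medians of 0.01 in striatum, 0.03 in cortex and 0.08 in cerebellum, against 0.01, 0.01 and 0.03 over all genes. The 13 tested substrates and partners of Hdac6 likewise gave 0 calls (limma), 4, 2 and 2 of them having an unadjusted p under 0.05, and medians from 0.01 to 0.08. Of 8 polyamine genes, Srm, which makes spermidine, was lower in transgenic control striatum at 11.46 ± 0.06 against 11.87 ± 0.13 (difference -0.41, adjusted p = 0.0455). Of 7 histone acetyltransferases, Crebbp, the CREB-binding coactivator, was higher in transgenic control cortex at 9.49 ± 0.07 against 9.10 ± 0.14 (difference 0.39, adjusted p = 0.0454). In cerebellum limma called 0 of the 72 genes of the 7 lists under control treatment, with 10 at an unadjusted p under 0.05. For 4b against control it called 0 of the 72 in any region and genotype, with 0 to 7 at an unadjusted p under 0.05.

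Genes with the pattern most like each member were read from Pearson correlations of the 12 group means over 9668 other genes measured in all regions (9669 for Hdac9). Hdac9 passed the filter only in cortex and most of its group means lay below the highest Y-linked value of 6.75, so its list correlates values near background. For Hdac10 these were Pcbp4 (0.987), Stmn2 (0.986) and Polr3gl (0.980), and for Hdac7 Nectin1 (0.970), Kcnj3 (0.969) and Ppm1l (0.962). Hdac4 was most like Prr15 (0.971), Eef1a2 (0.963) and Mfsd5 (0.963). Hdac11 was most like Nln (0.954), Adgrb1 (0.933) and Abhd11 (0.929), Hdac9 like Hip1r (0.928), Net1 (0.927) and Zwilch (0.927), and Hdac5 like Cdk2ap1 (0.908), Ubqln1 (0.897) and Chgb (0.896). The points share arrays and normalization, and regions set most of their spread.

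Among the members, Hdac7 and Hdac10 had the highest such correlation, 0.924 over the 12 group means, but -0.01 over the 47 arrays after each region's mean was taken off. The pairs highest by the latter measure were Hdac7 with Hdac11 at 0.48 and Hdac4 with Hdac11 at 0.45, the 3 genes in which transgenic control cerebellum replicate 1 was the highest array. Within regions, the gene most like Hdac4 over arrays was Zswim8 (0.80), that for Hdac11 S100a16 (0.77), that for Hdac10 Zdhhc4 (0.74), that for Hdac7 Zfp414 (0.65), that for Hdac5 Rabl6 (0.64) and that for Hdac9 Nectin3 (0.57).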

How the data were processed

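Total RNA from 3 brain regions was measured on 47 Illumina arrays. The authors' table of intensity values before normalization, made with BeadStudio per the submitters' processing notes (version not given in the sources used here), held 24613 probes per array. A second deposited table of log2 values lay within 0.0115 of quantile-normalized log2 intensities computed here. 1 sample column that matched no sample was not used.

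Intensities were background-corrected with normexp (offset 50) and quantile-normalized with limma 3.58.1 (R 4.3.3). A single gene symbol was annotated to 20984 probes, several to 1 and none to 3628, and 20968 were matched to a reference table of assembly GRCm38.p6 for names. The brightest probe by mean over all arrays stood for a gene. Probes above the 40th percentile of a region's means were tested, 12030 in striatum, 12052 in cortex and 12049 in cerebellum. Each region had its own fit (lmFit and eBayes, 2-sided) over its 4 groups, and comparisons across regions used all 47 arrays in 12 groups. Calls were made where the p adjusted by Benjamini-Hochberg over all genes tested was under 0.05. Groups came from the labels, and the sex in the labels matched a Y-linked gene on 47 of 47 arrays. The cut was the highest Y-linked value on arrays labelled female, so only arrays labelled male could fail to match. No 2 arrays held identical values. Each fold change is 2 to the power of a log2 difference.

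Text names all members. Of each pathway list it names at most 3 called genes per region for genotype under control treatment, and for likeness the 3 genes with the highest correlation per member. Members and lists were chosen with earlier results of these data known. Arrays were not paired by replicate number in the main fits. Within a region, same-numbered arrays of different groups were compared. In striatum, cortex and cerebellum, 6 of 24, 6 of 24 and 5 of 21 such pairs had deviations correlated over 0.1. Pairs with different numbers were not compared, so these counts cannot decide whether replicate numbers pair the arrays. Whether same-numbered arrays of different regions came from the same mouse was not tested. Alternatives were the background correction, the normalization, the deposited log2 values, the filter, the probe rule, array weights, an intensity trend, the arrays in the fit, BeadChip, sex and replicate blocks, and each array of the regions compared left out. The fits were tested on simulated data. Plots used matplotlib 3.10.9 under Python 3.11.15.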

Additional observations from a re-analysis of the deposited data

Results flagged for a closer look

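In 66 sets of 4 arrays (6 members in 11 groups), 2 sets held an array whose distance to the nearest of the others was more than 4 values of 1 group usually give, and chance gives about 1 in 20. Hdac9 in wild-type 4b cerebellum was lowest in replicate 1 at 6.32, against 6.67 to 6.71 in the other 3, and all 4 arrays lay below the highest Y-linked value of 6.75. Hdac11 in transgenic control cerebellum was highest in replicate 1 at 12.41, against 11.50 to 11.61 in the other 3. The same array was also the highest of its group for Hdac4 (10.67) and Hdac7 (9.56).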

How the results depend on the processing

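Each result was recomputed under up to 16 other settings and with each array of the region or regions compared left out in turn. The 36 member results called under at least 1 setting, with that of the dimmer Hdac5 probe among them, gave 1646 values. Of these 1563 kept their side of the threshold, 60 lost it, 23 gained it and 0 reversed. A reversal was a change of sign where the reported result or the setting was called. Differences never called did change sign, that of Hdac11 for averaged genotype in cerebellum under 13 of 31 settings. Of 1375 counts of called members 52 moved by over 1.5 times. The members called for genotype in striatum, averaged, went from 0 to 1 with all arrays in one fit (Hdac10, adjusted p = 0.0441) and with the replicate block (Hdac11, adjusted p = 0.0472). The replicate block changed 1 other count, wild-type control cortex against cerebellum, from 1 to 2. That count was also 2 with median scaling, and 0 with the compared groups only or BeadChip as a fixed block. The stricter filter, which removes Hdac10, gave 1 in place of 2 for striatum against cerebellum in both wild-type groups and for striatum against cortex in both transgenic groups. Wild-type 4b cortex against cerebellum went from 1 to 0 with the smaller offset, cyclic loess, the stricter filter, the intensity trend or either BeadChip block, and to 2 with array weights. Striatum against cortex fell from 2 to 1 with median scaling in both transgenic groups and with BeadChip as a fixed block in transgenic 4b mice. Transgenic 4b striatum against cerebellum fell from 4 to 2 with median scaling. Cortex against cerebellum went from 0 to 1 with array weights in both transgenic groups and with the compared groups only in transgenic 4b mice. With 1 array left out, the counts ran from 0 to 1 for averaged striatum genotype and for transgenic control cortex against cerebellum, from 0 to 2 for cortex against cerebellum in both wild-type groups, from 1 to 2 for transgenic 4b striatum against cortex and from 2 to 4 for transgenic 4b striatum against cerebellum. In wild-type control mice the striatum against cortex calls held in 47 of 48 settings for Hdac4, 48 of 48 for Hdac7 and 47 of 47 for Hdac10, and no setting called a member for 4b. Over all genes, the 4b calls in cerebellum rose from 0 to as many as 38 in transgenic mice, 96 in wild-type mice and 251 averaged, and the genotype calls under control treatment ran from 137 to 897 around 455 in striatum, from 374 to 684 around 614 in cortex and from 3 to 525 around 83 in cerebellum. The cause of these changes was not tested. Depth does not apply to arrays, but Hdac9 lay near the floor and its values are the least certain.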
